A study of Gossypium hirsutum with 2 samples.

Results

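The promoters described here belong to cotton genes whose best protein hit was described with the word kinase or phosphatase. Each gene carried a peak after affinity purification of genomic DNA with GhD53. The choice was meant to keep to the cell interior, which the descriptions do not establish. Members were taken from the longer of 2 deposited lists of promoter peaks by the wording of the hit. The description had to contain kinase or phosphatase, the authors' transcription factor column had to be empty, and names with receptor, leucine-rich repeat, LRR, wall-associated, chloroplast or mitochondri, in any letter case, were left out. This gave 80 genes with 82 peaks, out of 2111 genes with 2183 peaks. No peak value was used to choose them.

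GhD53 is the upland cotton (Gossypium hirsutum) protein of the D53 family, repressors that are degraded when the hormone strigolactone is perceived. DNA affinity purification sequencing reads out which fragments of naked genomic DNA are retained by a protein that carries an affinity tag and was expressed outside the cell. The DNA came from fiber, the seed hair of cotton, and there was 1 purified (IP) library and 1 input library, both labelled as fiber; no genotype or treatment was given. With 1 library a side there is no replicate spread, no test over samples is possible, and all p-values and q-values are the authors' own for single peaks. A purification without GhD53 was not analysed here, so enrichment over input and binding by GhD53 cannot be told apart.

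Protein kinases transfer phosphate from ATP to serine, threonine or tyrosine residues, and protein phosphatases remove it, so that a signal can be switched on and off. Plants use shaggy-related kinases in brassinosteroid signalling, kinases activated by calcium or by a MAPK cascade in stress and growth responses, and phosphatases of type 2C as brakes on several of these routes, among them abscisic acid signalling. Other members act on small molecules instead of proteins, such as the phosphoinositide lipids that mark endosomes and the vacuole.

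For each peak the authors gave a pileup (the number of fragments stacked at the summit in the purified library) and a fold enrichment, the ratio of pileup to a local background with 1 added to both. Kinase and phosphatase peaks were low: the median pileup was 5 fragments (quartiles 5 and 6, range 4 to 13) and the median fold 3.73 (quartiles 3.17 and 4.35, range 2.94 to 8.09). Over all 2183 peaks the median pileup was likewise 5 and the median fold 3.73, with a range of 4 to 748 fragments and 1.30-fold to 25.5-fold. The medians were therefore alike, but 63.4% of member peaks had at most 5 fragments, against 54.8% of all peaks. None of the members reached the tall end of the list: 0 of 82 had a pileup above 20, against 116 peaks (5.31%) of the whole list.

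A small number of fragments set every value. The background stood at its lowest level, 0.608 fragments, under 74 of the 82 peaks (90.2%, against 84.5% of all peaks), and there fold and q-value depend on the pileup alone. On this level 4 fragments gave 3.11-fold with a −log10 q of 0.917, 5 gave 3.73-fold (1.51), 6 gave 4.35-fold (2.27), 7 gave 4.98-fold (3.17) and 8 gave 5.60-fold (4.17). Of the members, 20 peaks had 4 fragments, 32 had 5, 19 had 6, 7 had 7, 2 had 8, 1 had 12 and 1 had 13. The exact 95% Poisson interval, which covers counting error only, runs from 1.09 to 10.2 for 4 fragments, from 2.20 to 13.1 for 6 and from 6.20 to 21.0 for 12. These intervals overlap, so the order of single members by fold was not resolved at this depth. They make no allowance for reading the pileup at the summit of called peaks, which start at 4 fragments.

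Of the 82 peaks, 60 had a q-value of at most 0.05 (73.2%, Wilson 95% interval 62.7 to 81.6), beside 79.0% of all peaks, and 29 had a fold of 4 or more (35.4%, 25.9 to 46.2), beside 39.5%. At a q-value of 1e-05 or lower there were 2 member peaks (2.44%), beside 10.4% of all peaks. A second, shorter deposited list of 725 genes was called on the same libraries, and 17 members were in both lists (21.2%, Wilson 95% interval 13.7 to 31.4), beside 34.3% of all longer-list genes. Kinase and kinase-like classes held 46 genes (48 peaks), phosphatase classes 26 genes, and 8 genes encode accessory proteins such as inhibitors and regulatory subunits. The median fold was 3.73 in each of these 3 groups.

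**Figure D1:**
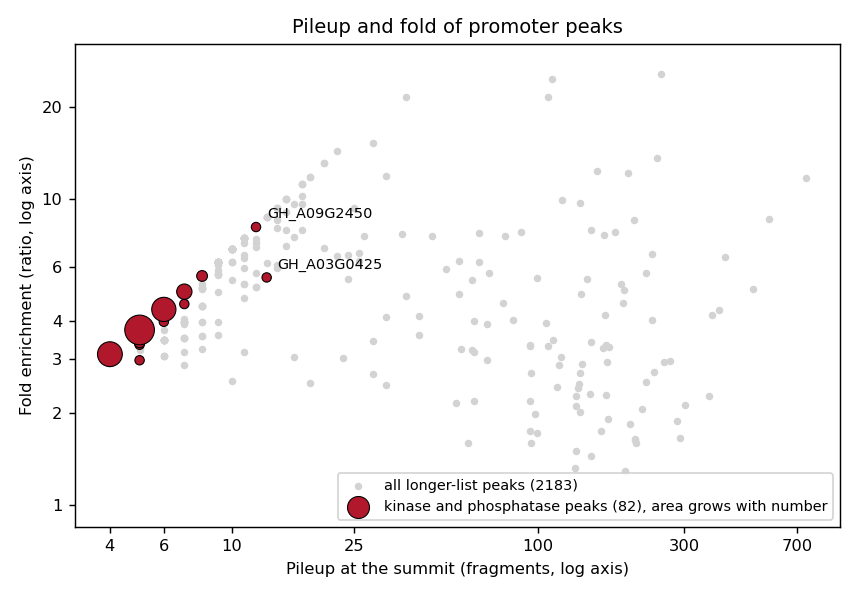
Pileup at the summit (fragments, log axis) against fold enrichment (ratio, log axis) for all 2183 longer-list peaks (grey) and the 82 kinase and phosphatase peaks (red, larger where several coincide). The red points lie on the low steps of 4 to 8 fragments except GH_A09G2450 (12 fragments, 8.09-fold) and GH_A03G0425 (13 fragments, 5.54-fold); the tall grey peaks hold no member.

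The strongest member was GH_A09G2450, a BLUS1-like kinase. In Arabidopsis BLUS1 acts in guard cells in the blue-light signal that opens stomata. Its main peak (chromosome A09, 81110164 to 81110570, in the coordinates of the files, whose build is not given in the sources used here) had a pileup of 12 (95% Poisson interval 6.20 to 21.0), 8.09-fold enrichment and a −log10 q of 8.82. It was 407 bp long and its centre lay 1653 bp upstream of the start site of the gene (81112020 to 81113574, plus strand). A second peak of the same promoter, centred 438 bp closer to the gene, had 5 fragments and 3.73-fold. The main peak was in both lists and the second in the longer list alone.

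GH_A03G0425, described as a long form homolog of serine/threonine phosphatase 7, had the highest pileup, 13 (6.92 to 22.2), over 463 bp (A03, 5775827 to 5776289, 515 bp upstream). Its background of 1.53 fragments was the highest among the members, so the fold was 5.54, with a −log10 q of 5.26. These 2 peaks were the only members past a q-value of 1e-05. At 8 fragments and 5.60-fold followed GH_A11G1374 (A11, 14936247 to 14936377, 721 bp upstream), a casein kinase I type, the sole gene in the class of AGC, casein and WNK kinases. The stronger of the peaks of GH_D06G1587 (D06, 50446162 to 50446336), a STY17-like kinase, had the same values.

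**Figure D2:**
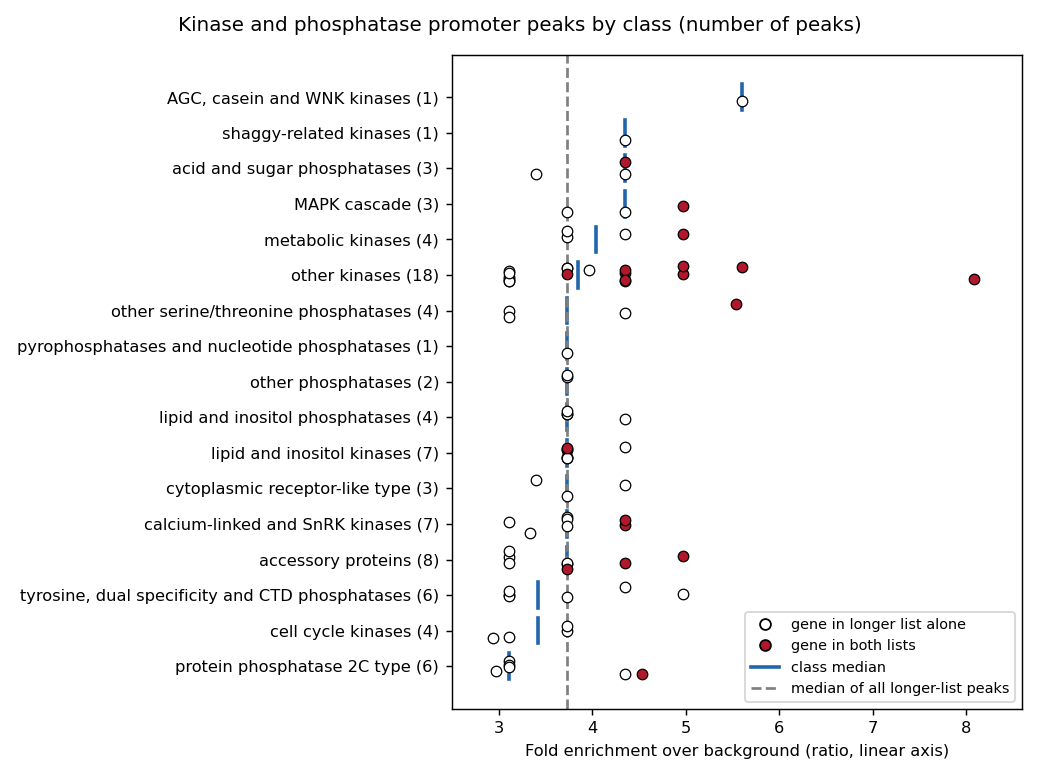
Fold enrichment (ratio, linear axis) of each of the 82 peaks by class, with the number of peaks per class in brackets; filled points are genes in both lists, blue bars class medians and the dashed line the median of all longer-list peaks (3.73). Most classes have a median on or near that line, with 3.11 for the 2C type and 8.09 for the highest single peak; classes with 1 gene have no spread.

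The shaggy-related class held 1 gene, GH_D09G0890, a kinase eta type. Its Arabidopsis relative BIN2 phosphorylates the factors that carry the brassinosteroid signal and so keeps them inactive, and the authors' KEGG entry for the gene is BIN2. The peak (D09, 33035183 to 33035601) had 6 fragments (2.20 to 13.1), 4.35-fold enrichment and a −log10 q of 2.27. At 419 bp it was the second longest among the members, after that of GH_A03G0425. Its centre lay 1039 bp and its summit 937 bp upstream of the start site. The gene was in the longer list alone.

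Protein phosphatases of type 2C formed a class of 6 genes with 1 peak each, with a median fold of 3.11 (range 2.97 to 4.53). The highest was GH_A03G1985 (phosphatase 2C 9 type; A03, 107261407 to 107261769), with 7 fragments, 4.53-fold, a peak length of 363 bp and a distance of 589 bp; it was the only one in both lists. GH_D05G0952 (2C 23 type) had 6 fragments and 4.35-fold, 753 bp upstream. The 3 genes GH_D04G1566 (2C 58 type, 557 bp), GH_D10G2391 (2C 38 type, 603 bp) and GH_A11G3031 (2C 5 type, 1965 bp) had 4 fragments and 3.11-fold. Lowest was GH_A07G0044, which joins a 2C domain to a cyclic nucleotide-binding and kinase domain. It had 5 fragments on a background of 1.02, hence 2.97-fold, 1813 bp upstream. A q-value of at most 0.05 was given for 2 of the 6 (Wilson 95% interval 9.68% to 70.0%), beside 79.0% of all peaks. On the lowest background 4 fragments miss this q-value and 5 reach it. The interval treats peaks of 1 purified library as independent draws, so no class difference was read from it. Of the 6 peaks, 4 lay between 557 and 753 bp from the start site. Over all peaks the quartiles of this distance were 753 and 1611 bp, and with 6 peaks nothing was read from this count.

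In the MAPK cascade, where each kinase activates the next by phosphorylation, 3 genes had a peak. GH_D07G0104, a MAPK kinase 6 type linked to cell division in Arabidopsis, had 7 fragments and 4.98-fold, 1319 bp upstream, and was in both lists. GH_D05G3461, a MAPK 19 type, had 6 fragments and 4.35-fold (1379 bp), and GH_D07G0144, a MAPK kinase 2 type that acts in cold and salt stress in Arabidopsis, 5 fragments and 3.73-fold (1197 bp). All 3 were on D chromosomes, which held 1064 of the longer-list genes, beside 1045 on A chromosomes. Their distances lay between 1197 and 1379 bp. With 3 genes, nothing was read from either.

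Phosphatases that act on MAPKs in Arabidopsis had 4 or 5 fragments. GH_A07G0942, of the IBR5 type, had 5 fragments and 3.73-fold (1922 bp), while GH_D01G1827 (MKP1 type, 1084 bp) and GH_D09G1285 (PTP1 type, 1099 bp) had 4 fragments and 3.11-fold. These 3 belong to a class of 6 tyrosine, dual specificity and C-terminal domain phosphatases with a median fold of 3.42. The class was led by GH_D07G1852, a tyrosine phosphatase (7 fragments, 4.98-fold, 1189 bp), and GH_D10G0267, which resembles CPL1, a phosphatase of the RNA polymerase II tail (6 fragments, 4.35-fold, 1100 bp). Its last member, GH_D02G2281 (4 fragments, 3.11-fold, 1892 bp), is a PTEN2A type that also acts on phosphoinositides. None of the 6 was in both lists (Wilson 95% upper limit 39.0%), beside 34.3% of all longer-list genes, so nothing was read from this count.

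Calcium-dependent protein kinases, which carry their own calcium-binding domain, had 6 genes, as many as the 2C type. GH_A02G0646 (CPK11 type, 1787 bp upstream) and GH_D05G3468 (CPK24 type, 548 bp) had 6 fragments and 4.35-fold and were in both lists. GH_A01G1314 (CPK7 type, 1296 bp) and GH_A04G1343 (CPK26 type, 520 bp) had 5 fragments and 3.73-fold. GH_A06G0009 (CPK29 type, 256 bp) had 5 fragments on a raised background of 0.797, giving 3.34-fold, and its peak was also annotated to the promoter of the neighbour GH_A06G0010. The other CPK24 type, GH_A02G0160, had 4 fragments and 3.11-fold at 428 bp. The CDPK-related kinase GH_D12G0725 (5 fragments, 3.73-fold) completed this class of 7 genes with the most distant peak of all members, 2030 bp upstream. Of the 6 calcium-dependent kinases 5 were on A chromosomes. Of all longer-list genes 1045 were on A and 1064 on D, and with 6 genes nothing was read from this count.

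Raf-like kinases, related to the upper tier of the MAPK cascade, had 4 genes with 5 peaks. GH_D06G1587, STY17-like, carried peaks of 8 and 7 fragments (5.60-fold and 4.98-fold) 292 bp apart, at 1428 and 1136 bp upstream; only the first was in both lists. Its namesake on chromosome A06, GH_A06G1492, had 4 fragments and 3.11-fold at 1371 bp. GH_D05G2217 is CTR1-like, after the Arabidopsis kinase that holds ethylene signalling off, and had 6 fragments, 3.97-fold and a distance of 921 bp. GH_D02G0042, HT1-like, after an Arabidopsis kinase of the stomatal response to carbon dioxide, had 4 fragments, 3.11-fold and a distance of 1971 bp.

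The class named cell cycle kinases had 4 genes, between 2.94-fold and 3.73-fold. It was set by wording such as cyclin-dependent, with GH_D06G0432 moved in by hand. Whether each gene acts in the cell cycle was not tested. Of the 4 genes, 0 were in both lists (Wilson 95% upper limit 49.0%), beside 34.3% of all longer-list genes, so nothing was read from this count. GH_A09G1912 (type D-3 cyclin-dependent kinase, of the kinases that activate others, 1854 bp) and GH_D06G0432 (mps1-like, a spindle checkpoint kinase in yeast, 751 bp) had 5 fragments. GH_A13G2499 (Nek5-like, 1099 bp) and GH_D08G1753 (type C-2 cyclin-dependent kinase, 1719 bp) had 4, the latter with 2.94-fold, the lowest of all members, on a background of 0.703.

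Both inhibitors of cyclin-dependent kinases with a peak were in both lists. GH_D05G3300, an inhibitor 5 type, had 7 fragments and 4.98-fold (1604 bp), and GH_D07G1138, an SMR2 type of the SIAMESE-related family, had 6 fragments and 4.35-fold (1818 bp). With 2 genes, and 34.3% of all longer-list genes in both lists, nothing was read from this count.

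The remaining 6 accessory genes had 4 or 5 fragments. GH_D07G1641, a regulatory B'' subunit of phosphatase 2A, had 5 fragments and 3.73-fold (1419 bp) and was in both lists, and GH_D11G1640, a B' subunit, had 4 and 3.11-fold (594 bp). GH_D13G0763, like a phytochrome kinase substrate that acts in phototropism in Arabidopsis, had 5 and 3.73-fold (1273 bp). Membrane-associated kinase regulators were GH_A08G1531 (5 fragments, 3.73-fold, 925 bp) and GH_A09G2353 (4 fragments, 3.11-fold), whose peak, 113 bp upstream, was the nearest to a start site among members. GH_D08G0107, like regulatory subunit 7 of phosphatase 1, was the only member whose peak was not in its own promoter. The peak (4 fragments, 3.11-fold) lay 1130 bp downstream of its start, in an intron, and in the promoter of GH_D08G0108.

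Enzymes of phosphoinositide turnover recurred among the members. FAB1-type kinases, which make the doubly phosphorylated lipid of late endosomes and vacuole, had 4 genes. GH_D09G0897 (FAB1B-like, 1107 bp) had 6 fragments and 4.35-fold, and GH_A09G0943 (FAB1B-like, 903 bp), GH_A05G0370 (FAB1A-like, 1497 bp) and GH_D01G1741 (FAB1C, 1137 bp) had 5 fragments and 3.73-fold. Only GH_D01G1741 was in both lists. The SAC2-like GH_A06G2227 (1192 bp) and the SAC3-like GH_A07G0178 (1443 bp), of a type that removes phosphate from the same lipid in Arabidopsis, also had 5 fragments and 3.73-fold. In the authors' KEGG column the phosphatidylinositol signalling map (map04070) was given to 8 longer-list genes, of which 7 were members. As that map consists mostly of kinases and phosphatases, this count follows from the word rule.

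The same class of 7 lipid and inositol kinases held 2 inositol phosphate kinases, GH_D04G0513 (1970 bp) and GH_D06G0059 (1406 bp), and the sphingoid base kinase GH_A12G0103 (837 bp), each with 5 fragments and 3.73-fold. All 7 had a q-value of at most 0.05, as did all 4 lipid phosphatases, beside 79.0% of all peaks, so nothing was read from these counts. These were the SAC types and the PAH1-like phosphatidate phosphatases, which release diacylglycerol for membrane and storage lipids. GH_A13G1121 had 6 fragments and 4.35-fold (1326 bp) and GH_A09G1759 had 5 and 3.73-fold (1164 bp). None of the 4 was in both lists (Wilson 95% upper limit 49.0%), beside 34.3% of all longer-list genes, and this count was not read either.

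Among the other serine/threonine phosphatases GH_A03G0425 was followed by GH_A06G1032 (6 fragments, 4.35-fold, 375 bp) and GH_D10G1105 (4 fragments, 3.11-fold, 1375 bp), all 3 described as phosphatase 7 long form homologs. GH_A10G2479, a catalytic PP1 isozyme, had 4 fragments and 3.11-fold at 1479 bp. For GH_A03G0425 and GH_A06G1032 the authors' KEGG entry named a UDP-arabinose 4-epimerase instead. They were the only 2 of the 33 members with a KEGG entry whose entry named neither a kinase nor a phosphatase. The BIN2 and PTI1 entries, which carry a kinase enzyme number without the word, were counted as kinases. The identity of the gene with the tallest member peak thus differed between annotations.

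The small-molecule kinases had 4 genes. GH_D06G0723, a phosphofructokinase 3 type of glycolysis, had 7 fragments and 4.98-fold (639 bp) and was in both lists. GH_D10G1583, a hydroxyethylthiazole kinase of thiamine salvage, had 6 and 4.35-fold (1413 bp). The guanylate kinase GH_A11G3558 (1365 bp) and the dihydroxy-butanone kinase GH_A07G0682 (1036 bp) had 5 and 3.73-fold.

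Phosphatases of small molecules had 5 or 6 fragments. The trehalose-phosphate phosphatase GH_D01G2115, which makes trehalose from its phosphate, had 6 fragments and 4.35-fold (1444 bp) and was in both lists. Of the purple acid phosphatases, GH_A02G0245 (PAP15-like, 1036 bp) had 6 and 4.35-fold and GH_A03G0644 (PAP27 type, described as inactive, 1103 bp) 5 and 3.40-fold. The phosphoglycolate phosphatase GH_A06G2380 (1046 bp, a peak shared with the promoter of GH_A06G2381), the magnesium-dependent phosphatase GH_D12G0163 (1895 bp) and the inorganic pyrophosphatase 2 type GH_A05G1362 (136 bp) had 5 and 3.73-fold. KEGG gave GH_A05G1362 as a phosphoethanolamine or phosphocholine phosphatase.

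Cytoplasmic kinases related to receptors comprised the CDL1-like GH_A09G0806 (6 fragments, 4.35-fold, 1158 bp) and GH_D09G2541 (5 fragments, 3.40-fold, 1085 bp) and the PTI1-like GH_A02G0158 (5 fragments, 3.73-fold, 1855 bp). CDL1 acts below the brassinosteroid receptor in Arabidopsis. None of these 3 genes was in both lists (Wilson 95% upper limit 56.1%), beside 34.3% of all longer-list genes, so nothing was read from this count.

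The class of other kinases also held GH_A01G0107, a TOR-like gene with the longest span of all members (20228 bp). TOR ties growth to nutrients, and the peak had the lowest pileup in the list, shared with 431 peaks in all (4 fragments, 3.11-fold, 437 bp). GH_A13G1854, like the kinase YAK1, which opposes growth in yeast, had 6 fragments and 4.35-fold (1832 bp) and was in both lists. So were GH_D02G0754, described as an inactive kinase (1966 bp), and GH_D07G1858, an aarF domain kinase (1699 bp), with the same pileup and fold. GH_D01G0434, a rust resistance kinase Lr10 type, had these values too (1967 bp) but was in the longer list alone. GH_D11G1501 (MHK-like, 1677 bp) and GH_A12G0440 (1565 bp), a kinase with no further name, had 4 fragments and 3.11-fold. GH_A08G0796 (CCR3, 1876 bp) had 5 and 3.73-fold. The Lr10 and CCR3 names belong to receptor-like kinases of the cell surface, so the word rule did not remove every such gene.

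The last 3 kinases, all described as myotonin-protein kinase-like, had the same best hit, a Gossypium raimondii protein. GH_D10G1838 had 7 fragments and 4.98-fold (282 bp) and was in both lists, GH_D09G0575 had 5 and 3.73-fold (241 bp) and GH_D09G1559 had 4 and 3.11-fold (821 bp). Their gene models span 427, 454 and 427 bp. Only 5 members had a model under 500 bp, the other two being GH_D05G3461 (325 bp) and GH_A08G0796 (457 bp), against a median span of 3599.5 bp over members. Whether these 5 models are whole genes was not tested. Under 500 bp were 391 of all 2111 genes (18.5%) and 6.25% of the members.

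Gene ontology terms were given by the authors for 58 members. Cytoplasm was among them for 39, nucleus for 24, plasma membrane for 20, cytosol for 11, mitochondrion for 4, chloroplast for 1 and extracellular region for 0. A protein kinase activity term was given for 30 and a phosphatase activity term for 11. These terms do not mark each member as an enzyme of the cell interior. Among the members are 8 accessory proteins, the CCR3 and Lr10 types, GH_D02G0754 and GH_A03G0644, described as inactive, and GH_A03G0425 and GH_A06G1032 with their epimerase entry. The rule left out 47 other genes of kinase or phosphatase description, 42 of them for the word receptor, with a median fold of 3.73. Of these 47 genes, 21 were in both lists (44.7%, Wilson 95% interval 31.4 to 58.8). Beside 34.3% of all longer-list genes, nothing was read from this count. The histidine kinases GH_A12G1421 and GH_D05G0636 were left out by the transcription factor column.

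The 17 shorter-list peaks of members had the same pileup and fold as in the longer list, so presence in both lists is no second measurement. All 17 were narrower in the shorter list, for example 174 against 179 bp for GH_D05G3300 and 194 against 363 bp for GH_A03G1985. Lengths given here are those of the longer list. Presence in both lists went with pileup. Of the member peaks, 0 of 20 with 4 fragments overlapped a shorter-list peak, 2 of 32 with 5, 7 of 19 with 6, 5 of 7 with 7, 1 of 2 with 8 and both above 8. In the whole list the numbers were 0 of 431, 103 of 765, 182 of 444, 149 of 189 and 88 of 96 for 4 to 8 fragments. Peak length varied within these steps. At 6 fragments the 7 overlapped member peaks were 143 to 246 bp long (median 182) and the other 12 were 137 to 419 bp (median 177.5), so the ranges overlapped. GH_A11G1374, with 8 fragments, was the tallest member outside the shorter list, and at 131 bp its peak had the shortest length in the list.

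**Figure D3:**
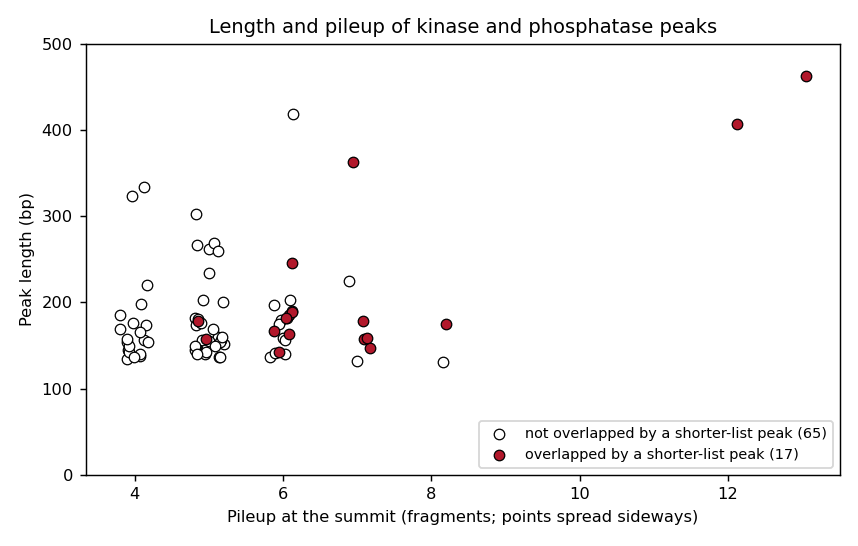
Peak length (bp) against pileup at the summit (fragments, points spread sideways) for the 82 kinase and phosphatase peaks; filled points are the 17 peaks overlapped by a shorter-list peak. No filled point lies at 4 fragments, and the 2 peaks above 8 fragments are 407 and 463 bp long, beside 419 bp for the peak of the shaggy-related gene at 6 fragments.

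Within promoters the largest share of member peaks lay between 1000 and 1499 bp upstream. Of 80 member peaks centred within 2000 bp upstream, 8 lay in the nearest 500 bp (10%, Wilson 95% interval 5.15 to 18.5), 16 in the next (20%, 12.7 to 30.0), 35 between 1000 and 1499 bp (43.8%, 33.4 to 54.7) and 21 in the farthest 500 bp (26.2%, 17.9 to 36.8). In the whole list the shares were 13.8%, 25.3%, 29.3% and 31.5% of 2099 peaks. The interval of the third share lay above the value of all peaks. It treats peaks of 1 purified library as independent draws, however, and this is 1 of 4 bins read without a test. The median distance, 1192 bp (95% interval 1099 to 1375), was close to the 1197 bp of all peaks. Members between 1000 and 1499 bp include all 3 MAPK cascade genes, the shaggy-related gene, 3 of the 4 FAB1 types and all 4 lipid phosphatases. They are named because they lie in that bin, so no position typical of a class was read from them. The 6 calcium-dependent kinases had a median of 534 bp (range 256 to 1787) and the 6 genes of type 2C a median of 678 bp (range 557 to 1965). Over all peaks the quartiles were 753 and 1611 bp, and with 6 genes each nothing was read from these medians.

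**Figure D4:**
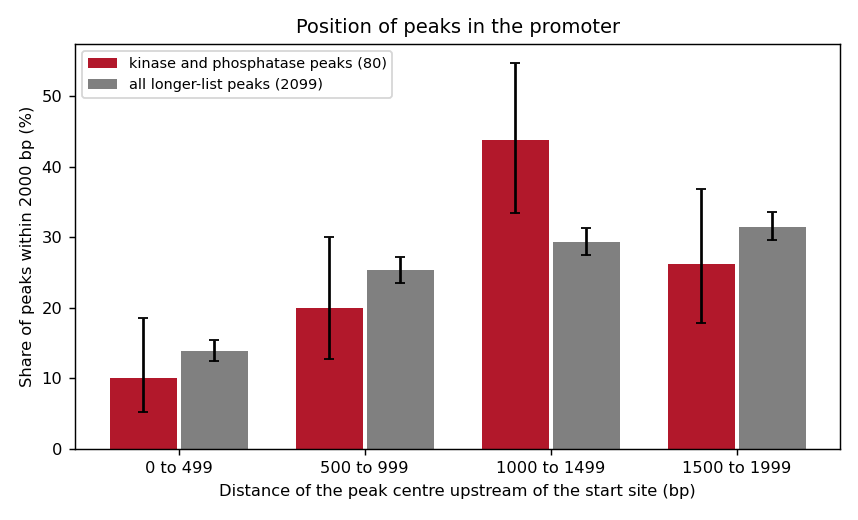
Share of peaks (%) by distance of the peak centre upstream of the start site (bp), among peaks within 2000 bp, for kinase and phosphatase genes (red, 80 peaks) and the whole longer list (grey, 2099 peaks); error bars are Wilson 95% intervals. The red share is 43.8% between 1000 and 1499 bp, where the grey one is 29.3%.

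Upland cotton has an A and a D subgenome. Of the members 38 were on A and 42 on D chromosomes, beside 1045 and 1064 of all longer-list genes. Members were found on 25 of the 26 chromosomes, with up to 6 genes on one and 0 on D03. Only 3 pairs had the same description on same-numbered A and D chromosomes. The STY17-like genes GH_A06G1492 and GH_D06G1587, with gene spans of 5609 and 5645 bp, had 3.11-fold and, for the stronger peak, 5.60-fold. That stronger peak, at 1428 bp, lay within 57 bp of the distance of the A copy's peak, at 1371 bp. The FAB1B-like genes GH_A09G0943 and GH_D09G0897, with spans of 6881 and 6890 bp, had 3.73-fold and 4.35-fold, and their distances of 903 and 1107 bp differed by 204 bp. The CDL1-like pair, GH_A09G0806 and GH_D09G2541, differed in span (4987 and 2535 bp). Whether these are true homoeologs was not tested.

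Some members were neighbours. The PTI1-like GH_A02G0158 and the CPK24 type GH_A02G0160 are 2 gene numbers apart, with peak centres 23751 bp from each other. The shaggy-related GH_D09G0890 and the FAB1B-like GH_D09G0897 are 7 numbers and 147454 bp apart, both with 4.35-fold. Each has its own peak, so these are separate enrichments.

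Genes of related signalling outside the word rule, matched by other words in their descriptions, were also in the longer list. There the median fold of all peaks was 3.73. Whether these genes act with the members was not tested. Cyclins, which activate cyclin-dependent kinases, had 7 genes with a peak, between 3.11-fold and 4.35-fold with a median of 3.73, and 2 of them were in both lists. The highest was GH_A13G0411 (cyclin-H1-1-like, 6 fragments, 438 bp). Calcineurin B-like protein 1, a calcium sensor for kinases (GH_A11G0271, 4.35-fold, 1784 bp), and a calmodulin-binding protein (GH_A11G3486, 3.73-fold, 2007 bp) were in both lists. So were 34.3% of all longer-list genes, and with 7 cyclins and 2 calcium-linked genes nothing was read from these counts. A single gene of the phosphopeptide-binding 14-3-3 family, GH_D05G2268, had 3.40-fold (2014 bp). By the words response regulator 3 genes were matched, between 3.47-fold and 3.73-fold. GH_D10G2057 is ARR17-like, of the type that receives phosphate from histidine kinases, while GH_A07G1041 (APRR9) and GH_D04G0848 (PRR37) are pseudo-response regulators of the clock family, which lack that phosphate site. No abscisic acid receptor and no BES1/BZR1 factor was matched among the described genes; with peaks starting at 4 fragments, their absence was not evidence that these promoters were unbound.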

How the data were processed

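One purified and one input library of GhD53 were compared by the authors. BWA, ChIPseeker and deepTools 2.5.4 are named in the submitters' processing notes; which program called the peaks, on which build and with which cutoffs is not given in the sources used here. Per the file headers, the authors deposited for each promoter peak a pileup (signal at the summit), a fold enrichment (ratio), and the −log10 p-value and −log10 q-value, with the peak length, gene, distance of the peak centre to the start site, best protein hit, KEGG and gene ontology entries. Library totals were not used here.

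The background was computed as (pileup + 1) / fold − 1. A Poisson tail on it gave the deposited −log10 p of all 82 member peaks to within 1e-05. Classes were assigned by words in the best hit, 18 in all and 17 with members (no histidine kinase). For 6 genes the class was moved by hand. The members, classes and lists were chosen with earlier results of these data known, and the families named within classes after seeing the descriptions. The genes to be named were all of the shaggy-related and 2C type, all in both lists, those of highest fold or pileup, all of small classes, and the nearest, farthest, misplaced and paired ones; the remaining members were named too, so that each is accounted for. Lists were described by counts and medians beside those of all peaks, with no set test.

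Pileups have exact Poisson intervals, for counting error only, with no allowance for the selection of called peaks. Shares have Wilson 95% intervals and medians order-statistic intervals. Both treat the genes or peaks as independent draws, and neither measures a spread between libraries. Overlap needed 1 bp. The word rule and class rule were tested on made-up descriptions. The overlap step was run at 1 bp on copies of real peaks, part of them moved to an absent chromosome. That outcome was fixed in advance, so it checks the code only. Python 3.11.15, pandas 2.3.3 and scipy 1.17.1 were used. Alternatives were stricter q-values, the shorter list, other word rules, own-promoter peaks, 1 peak per gene, the lowest background, other overlaps and other distances.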

Additional observations from a re-analysis of the deposited data

How the results depend on the processing

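Of 31 alternative settings over 7 results, 22 kept the value within its interval or within 1.5 times the count. Several of the 22 left nearly all of the 82 peaks in place and could hardly move a value. Dropping pyrophosphatase and similar descriptions left 81 peaks, own-promoter peaks were 81, and 1 peak per gene left 80. The number of 22 is therefore no measure of stability. Among the 22 are both settings for the 2C type, which say nothing about stability, since the interval spans all 6 values: its median fold went from 3.11 to 4.44 at a q-value of at most 0.05 (2 peaks) and 4.53 in the shorter list (1 peak). The shorter list left 17 genes of the 80, with a median fold of 4.35, a median pileup of 6 and a median distance of 1427 bp. A q-value of 0.05 or lower gave a median fold of 3.85 and a median pileup of 5.5. At a q-value of 1e-05 or lower 2 genes were left, with a median fold of 6.81 and a median pileup of 12.5. The q-value settings keep the more significant peaks by construction; how the shorter list was made is not given in the sources used here. Setting the excluding words in the letter case of the rule would add 1 gene, GH_D07G0800, a receptor-like kinase, giving 81; this, dropping models under 500 bp and using the summit for distance were chosen after seeing the data. No paired analysis was possible because each group has 1 library. Most members rest on 4 to 6 fragments, so counting error is wide; the part of sequencing depth in this was not tested.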
